A study of Homo sapiens with 9 samples.

Results

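The human genome encodes 7 inhibitor genes of cyclin-dependent kinases (CDKs) in the INK4 and CIP/KIP families. All 7 were taken by symbol from a deposited table of 26196 gene symbols, in which they are listed as 19 of 52741 transcripts. CDKN1A is listed with 5 transcripts, CDKN1B with 1, CDKN1C with 3, CDKN2A with 4 and CDKN2B, CDKN2C and CDKN2D with 2 each. Polyadenylated RNA was sequenced from HCA2, a line of human foreskin fibroblasts, in 9 libraries of 3 groups. The normal group holds 3 libraries of cells labelled proliferative. The senescent cells, sorted on the surface protein PD-L1, gave 3 PD-L1-negative and 3 PD-L1-positive libraries. Per the labels' protocols, the senescent state was induced over 24 hours with 100 nM of doxorubicin, which damages DNA. The cells then stayed in 100 nM of BI-2536, which blocks the kinase PLK1 needed for mitosis and was used against cells that still divided, and the whole course took 12 days. The same treatment text stands on the normal libraries, whose cells are labelled proliferative, so it was not taken to apply to them, and the normal cells carry the PD-L1 label positive. All groups share 1 cell line, and the labels do not say whether the replicates were separate cultures, and the p-values therefore rest on differences among these libraries, which may be technical.

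CDK inhibitors stop the cell cycle by binding CDKs or their cyclin complexes. The INK4 proteins p15, p16, p18 and p19 bind CDK4 and CDK6 and keep cyclin D from activating them, whereas the CIP/KIP proteins p21, p27 and p57 bind complexes of cyclins with CDK2 and other CDKs. Blocked CDKs leave the retinoblastoma protein unphosphorylated, and the E2F factors it holds cannot switch on genes of DNA replication. In senescent fibroblasts p21 is known as the early arm of the arrest, switched on after DNA damage, and p16 as the arm that keeps the arrest in place. CDKN2A is an unusual gene because it makes unrelated proteins from the same exon: p16, and p14ARF, which is no CDK inhibitor but binds the ubiquitin ligase MDM2.

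The p16 and p14ARF messages of CDKN2A differ in their first exon, and the results below turn on telling them apart. In GENCODE 29 transcripts on GRCh38, the p16 message (NM_000077) starts with exon 1α and the p14ARF message (NM_058195) with exon 1β, and both join it to the same exon 2. The starts of exon 1β and exon 1α lie 19.526 kb apart. Exon 2 is entered in phase 0 in the p16 message and in phase 2 in the p14ARF message, so that the same bases are read in different frames. The p16 transcript also resembles that of p15 (NM_004936), the product of the neighbouring gene CDKN2B. The longest run that these transcripts share is 80 bases, and their coding sequences are 71.7% identical.

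**Figure D1:**
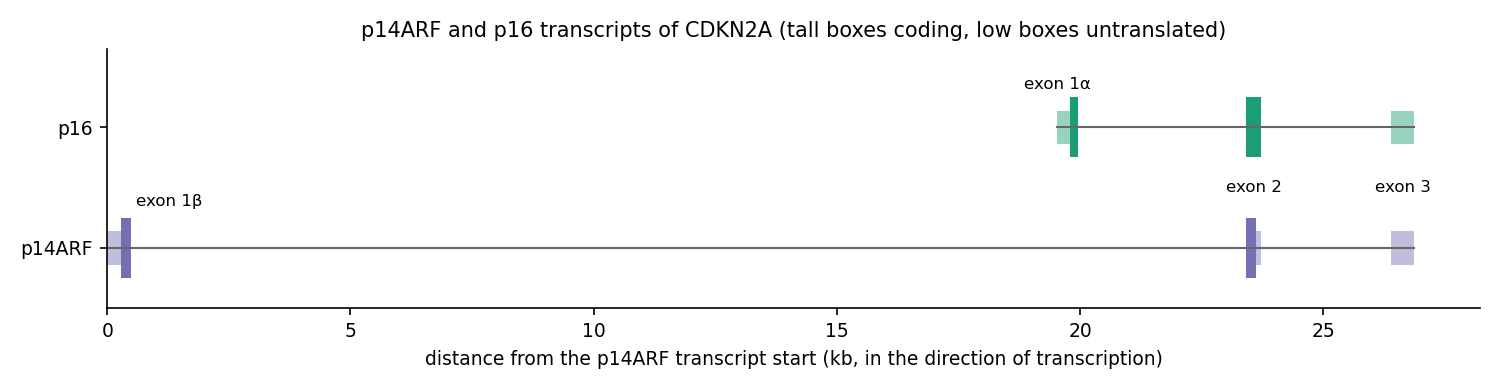
Exons of the p14ARF and p16 transcripts of CDKN2A by distance in kb from the p14ARF start, in the direction of transcription, with tall boxes for coding and low boxes for untranslated parts. The starts of exon 1β and exon 1α are 19.526 kb apart and both messages use exons 2 and 3, which hold the 797 bases they share.

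The p16 transcript is 1218 bases long and the p14ARF transcript 1283, and the 797 bases they share make up 65.4% and 62.1% of them. A fragment from the shared bases cannot by itself be given to either message, so the level of each transcript is an estimate by the authors' FPKM program, which is not given in the sources used here. For the same reason p16 and p15 values are uncertain where fragments fall in the run that they share.

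Values are FPKM, fragments per kilobase of transcript at a common depth, which are set per length and can be compared between genes. The depth was estimated from the steps of the FPKM values at 11600000 to 17700000 fragments per library, and 11437 to 11891 genes per library reached an FPKM of 1. Differences were fitted with limma on log2(FPKM + 0.5) over the 12763 genes that averaged 0.5 FPKM or more, and a gene was called at a Benjamini-Hochberg adjusted p under 0.05. The average was taken over all 9 libraries, so a gene could pass through the group where it was high. The counts below include such genes. The fibroblast markers were high in all libraries, with summed FPKM of 8801 to 11292 in normal and 11950 to 15376 in senescent cells. Of the keratinocyte, melanocyte, endothelial and leukocyte markers, 5, 4, 4 and 4 of 6 had mean FPKM under 0.5, among them KRT5, TYR, PECAM1, CDH5, PTPRC and CD3E. The exceptions were KRT10, MITF, PMEL, FLT1, TEK, CD14 and CD68. Of these, PMEL, CD68 and MITF rose in the senescent cells by 1.02, 0.85 and 0.60 on the log2 scale (adjusted p = 0.00143, 8.43e-05 and 0.0144). PMEL passed the filter through the senescent cells, at a mean of 1.41 FPKM against 0.421 in normal cells. FLT1, TEK and KRT10 fell by 0.90, 0.58 and 0.36 (adjusted p = 0.000438, 0.0438 and 0.00904), and CD14 did not pass with 0.50 (adjusted p = 0.0535). Of the 9 fibroblast markers 5 were called higher and 0 lower, beside 23.9% and 29.9% of all genes tested, with a median log2 difference of 0.73. LUM and DCN rose most, by 1.98 and 1.90 (adjusted p = 0.000108 and 0.000258). COL1A1, PDGFRB, VIM and COL3A1 did not pass, with 0.34, 0.16, −0.17 and −0.21. In PD-L1-positive against normal cells 5 were called higher and 1 lower, against 21.1% and 26.3% of all genes. The summed FPKM of the keratinocyte and endothelial markers were 17.2 to 18.9 and 35.4 to 48.2 in normal and 12.1 to 16.2 and 19.9 to 26.2 in senescent cells. Those of the melanocyte and leukocyte markers were 4.86 to 8.81 and 32.4 to 34.9 in normal and 10.8 to 12.2 and 53.9 to 67.6 in senescent cells. The part of such markers in the results on the inhibitors was not tested. In such bulk libraries fewer cells with a message and less message per cell cannot be told apart.

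All 7 genes passed the filter on low values, CDKN1C narrowly at a mean of 0.574 FPKM. Ordered by level in the senescent cells, CDKN1A was far above the rest with a mean of 556 FPKM ± 70.4 (SD, n = 6). CDKN2A followed with 13.6 ± 1.97 and CDKN1B with 9.89 ± 1.34, and the libraries of these neighbours overlapped. CDKN2B had 5.83 ± 0.917 and CDKN2C 5.03 ± 0.390, which overlapped too. CDKN2D had 3.56 ± 0.811, with its highest library just under the lowest of CDKN2C, and CDKN1C came last with 0.482 ± 0.154. In the normal cells CDKN1A again led with 212 ± 101 (SD, n = 3), but CDKN2C with 25.1 ± 13.3 and CDKN2D with 13.5 ± 6.50 came before CDKN2A with 11.1 ± 1.83. CDKN1B had 10.5 ± 4.65, CDKN2B 3.53 ± 1.51 and CDKN1C 0.759 ± 0.520. Among the normal libraries the levels of CDKN2C, CDKN2D, CDKN2A and CDKN1B overlapped, as did those of CDKN1B and CDKN2B. CDKN1A made up 73.7% ± 15.8 of the summed FPKM of the 7 genes in normal and 93.5% ± 0.565 in senescent cells.

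**Figure D2:**
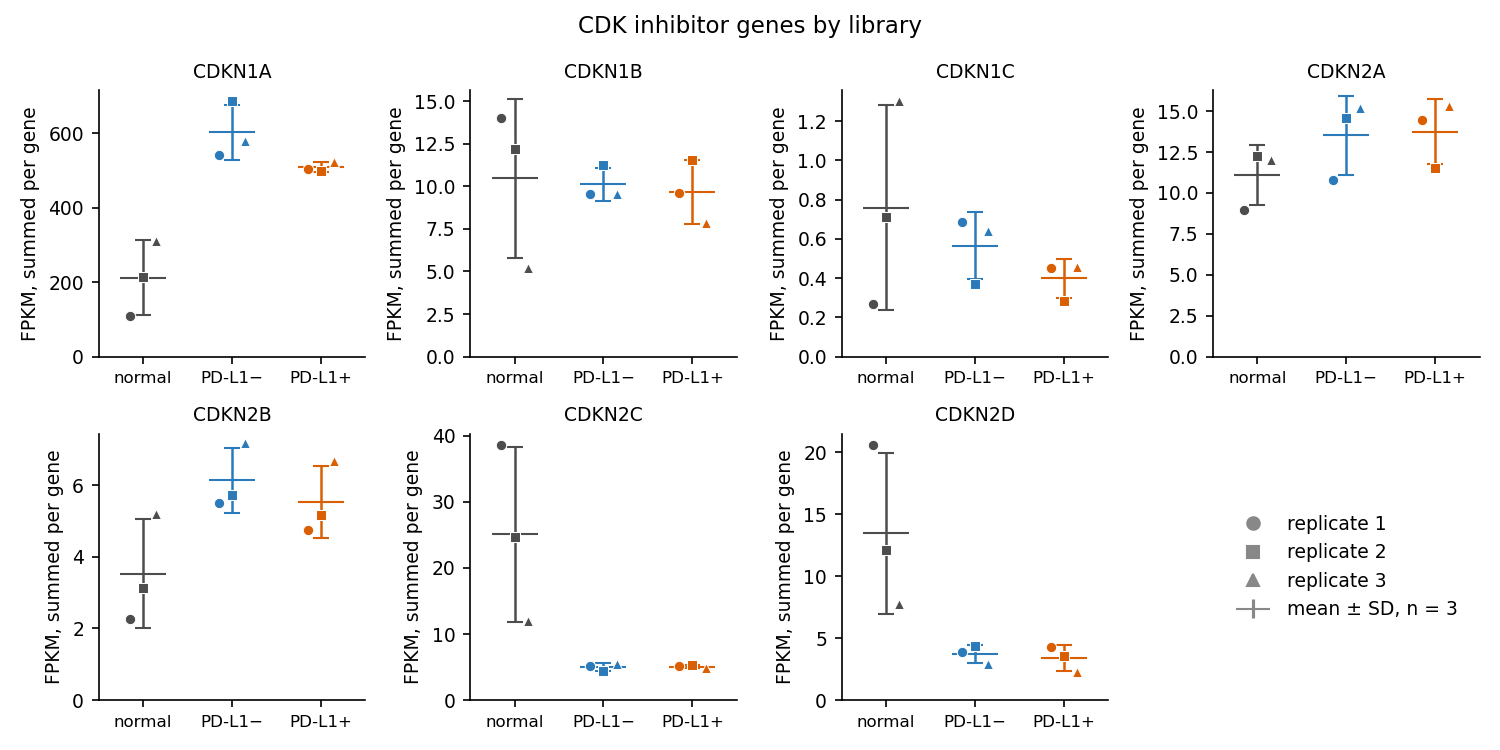
FPKM of the 7 CDK inhibitor genes, summed per gene, in each library of the normal, PD-L1-negative and PD-L1-positive groups, with the mean ± SD of 3 libraries as bars and replicates 1, 2 and 3 as circle, square and triangle. CDKN1A lies higher in all 6 senescent libraries than in any normal one, CDKN2C and CDKN2D lie lower, and the 4 other genes overlap between normal and senescent cells.

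The question of how senescent cells differ from proliferating ones was put to the 6 senescent against the 3 normal libraries. CDKN1A and CDKN2B rose, CDKN2C and CDKN2D fell, and CDKN1B, CDKN1C and the CDKN2A sum did not pass the test. Of the 7 genes 2 were thus called higher, where 23.9% of all genes tested were, and 2 lower, where 29.9% were. With each library scaled to an equal FPKM sum, 2300 of all genes were higher and 4580 lower in place of 3044 and 3821, and the calls of the 7 held. The levels of 3 genes, CDKN1A, CDKN2C and CDKN2D, did not overlap between the groups, as was true of 48.7% of all genes. The median log2 difference of the 7 was 0.02, beside −0.04 for all genes. Calls of this kind were common among all genes in this comparison, so the counts do not set the family apart.

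In the CIP/KIP family, CDKN1A, which encodes p21, measured 109.9, 214 and 311 FPKM in normal replicates 1, 2 and 3. The PD-L1-negative libraries had 542, 686 and 579 and the PD-L1-positive libraries 505, 498 and 524. Every senescent library was above every normal one, and normal replicate 3 was nearest to them. The log2 difference was 1.50 (SE 0.262, adjusted p = 0.00124), a 2.84-fold rise with a 95% interval of 1.89 to 4.27. CDKN1B, which encodes p27, an inhibitor linked to quiescence, measured 14.01, 12.2 and 5.20 in the normal libraries. The PD-L1-negative libraries had 9.55, 11.2 and 9.57 and the PD-L1-positive libraries 9.62, 11.6 and 7.84, between the normal extremes. Its log2 difference was 0.02 with a 95% interval from −0.57 to 0.62 (adjusted p = 0.951), and without normal replicate 3 it was −0.40 with an adjusted p of 0.0402. The imprinted gene CDKN1C, which encodes p57, was at 0.266, 0.710 and 1.30 in normal cells. In the senescent libraries it lay between 0.285 and 0.684. Its log2 difference was −0.29 (95% interval −0.85 to 0.27, adjusted p = 0.356), and −0.60 (adjusted p = 0.0418) without normal replicate 1, which held the lowest level. The CDKN1C mean was 0.759 FPKM in normal and 0.482 in senescent cells, so the filter of 0.5 kept it through its higher normal values.

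In the INK4 family, the genes of p18 and p19 carried the falls. CDKN2C, which encodes p18, measured 38.5, 24.7 and 12.0 FPKM in normal replicates 1, 2 and 3. The PD-L1-negative libraries had 5.16, 4.38 and 5.49 and the PD-L1-positive libraries 5.09, 5.25 and 4.81. The normal libraries spread 3.21-fold from lowest to highest and the 6 senescent ones 1.25-fold, without overlap. The difference on the log2 scale was −2.06 (SE 0.284, adjusted p = 0.000362). The normal mean was 4.99 times the senescent mean. CDKN2D, which encodes p19, measured 20.5, 12.1 and 7.76 in normal cells. The PD-L1-negative libraries had 3.89, 4.34 and 2.92 and the PD-L1-positive libraries 4.30, 3.59 and 2.29, all below the lowest normal library. The log2 difference was −1.70 (SE 0.280, adjusted p = 0.000908). CDKN2B, which encodes p15, a known target of TGF-β signalling, measured 2.26, 3.14 and 5.21 in normal cells. The PD-L1-negative libraries had 5.49, 5.73 and 7.17 and the PD-L1-positive libraries 4.76, 5.18 and 6.67. Normal replicate 3 reached into the senescent range, while the other normal libraries lay below it. The log2 difference was 0.70 (SE 0.212, adjusted p = 0.0190), a 1.63-fold rise with an interval of 1.17 to 2.27. This call was lost without normal replicate 1 (0.46, adjusted p = 0.0797), without normal replicate 2 (0.66, adjusted p = 0.0705) and with library weights (0.63, adjusted p = 0.0982).

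The summed CDKN2A level had the smallest difference among the INK4 genes. It was 8.99, 12.2 and 12.0 FPKM in normal cells, 10.8, 14.6 and 15.2 in the negative and 14.5, 11.5 and 15.3 in the positive fraction. The groups overlapped, and the log2 difference of 0.29 had a 95% interval from −0.05 to 0.62 (adjusted p = 0.130). Its transcripts behaved differently from their sum. Of the 4 transcripts, 2 passed the filter on low values, NM_000077 for p16 and NM_058195 for p14ARF.

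The p16 transcript rose in the senescent cells. It measured 0.313, 0.972 and 1.52 FPKM in normal replicates 1, 2 and 3. The negative fraction had 4.52, 5.80 and 4.42 and the positive fraction 5.95, 3.74 and 5.01. The lowest senescent library lay above the highest normal one. In limma over 19964 transcripts the log2 difference was 1.99 (SE 0.277, adjusted p = 0.000807), a 3.99-fold rise with an interval of 2.58 to 6.15. Without a pseudocount the senescent mean was 5.24 times the normal mean. Of all transcripts 16.1% were called higher and 20.7% lower, and 36.0% did not overlap between the groups. The estimated fragments behind the p16 values were 7 to 27 per normal library and 67 to 104 per senescent library, so that the normal levels are the less precise. These estimates cover all 1218 bases of the transcript, including those shared with p14ARF. Exon 1α, which tells p16 apart from p14ARF, holds 421 of them, so the fragments that separate these messages are fewer. The exons of the remaining CDKN2A transcripts were not mapped, so exon 1α may not be particular to p16.

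The p14ARF transcript did not pass the test. It measured 8.67, 11.3 and 10.5 FPKM in normal cells, 6.25, 8.79 and 10.8 in the negative and 8.35, 7.49 and 9.88 in the positive fraction, and the groups overlapped. The log2 difference was −0.24 with a 95% interval from −0.63 to 0.15 (adjusted p = 0.302). It rested on an estimated 193 to 252 fragments per normal and 97 to 196 per senescent library, those of the bases shared with p16 included. The other transcripts, NM_058197 and NM_001195132, were near or at 0. NM_001195132 was listed at 0 in all 9 libraries. NM_058197 was listed at 0 in the normal and PD-L1-negative libraries and at 0.153, 0.280 and 0.387 in the positive fraction, too low to enter the test.

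The p16 message made up 3.48%, 7.94% and 12.7% of the CDKN2A FPKM in normal replicates 1, 2 and 3. It made up 42.0%, 39.8% and 29.1% in the PD-L1-negative and 41.2%, 32.5% and 32.8% in the PD-L1-positive libraries. The mean share was 8.03% ± 4.59 (SD, n = 3) in normal and 36.2% ± 5.40 (SD, n = 6) in senescent cells. The difference of 28.2 percentage points had an exact two-sided permutation p of 0.0238, the smallest that 6 against 3 libraries can give. This test takes the 6 senescent libraries as unpaired, though the sorted fractions may be paired. With libraries permuted only within replicate numbers, the permutation p was 0.0741, again the smallest possible. As listed, p14ARF stayed the more abundant message in all 9 libraries. It was at 27.7, 11.6 and 6.90 times the p16 level in normal replicates 1, 2 and 3 and at 1.38 to 2.43 times in senescent cells. These shares and ratios depend on how the FPKM program divided the fragments of the shared bases, which is not known.

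**Figure D3:**
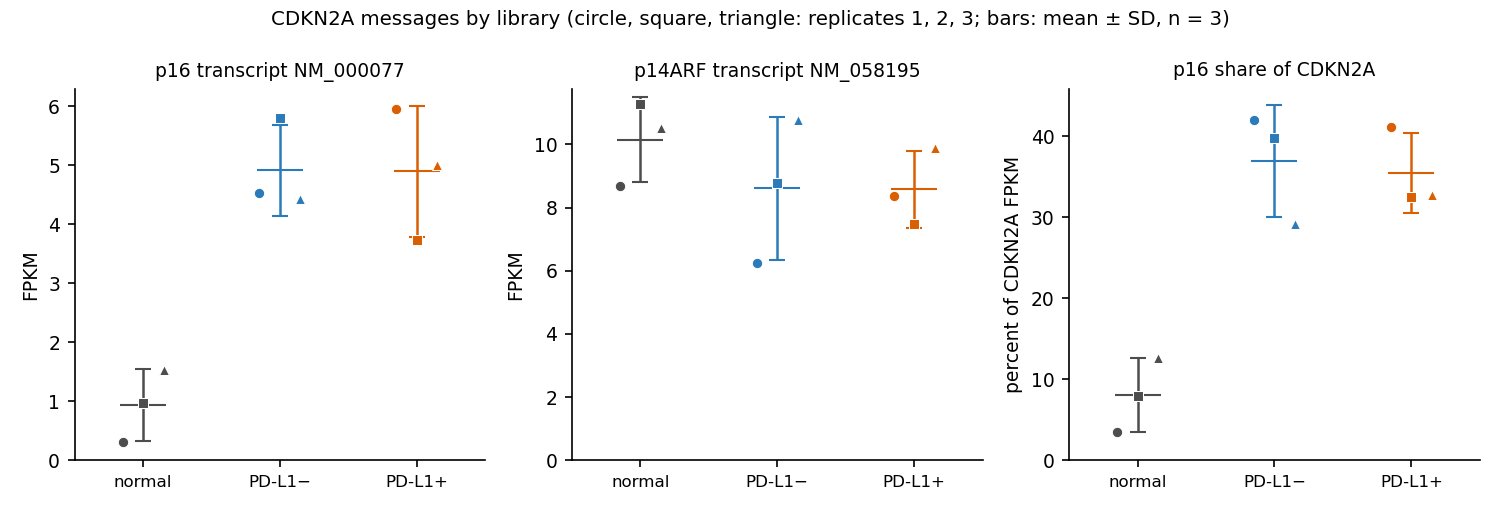
FPKM of the p16 and p14ARF transcripts and the percent of CDKN2A FPKM listed as p16, in each library of 3 groups, with the mean ± SD of 3 libraries as bars. The p16 level and share are higher in all 6 senescent libraries than in any normal one, whereas the p14ARF levels overlap.

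Of the transcripts of the other genes that could be tested, all but 1 CDKN1A transcript had the call of their sums. Of 11 inhibitor transcripts that passed the filter, among 19 listed, 4 were called higher in the senescent cells, where 16.1% of all transcripts were, and 4 lower, where 20.7% were. CDKN1A is carried by NM_000389, which rose from 202 ± 97.3 FPKM (SD, n = 3) to 535 ± 70.6 (SD, n = 6) with a log2 difference of 1.52 (adjusted p = 0.00259). A second CDKN1A transcript, NM_001220778, rose from 9.27 ± 3.81 to 19.5 ± 2.85 with a log2 difference of 1.11 (adjusted p = 0.00873). The exception, NM_001220777, was low, with a normal mean of 0.446 FPKM against 0.428 in the negative and 1.30 in the positive fraction, and did not pass with a log2 difference of 0.51 (adjusted p = 0.549). Both CDKN2C transcripts fell, NM_001262 by 2.06 and NM_078626 by 1.60 on the log2 scale (adjusted p = 0.00174 and 0.00129). Both CDKN2D transcripts fell as well, NM_079421 by 1.73 and NM_001800 by 1.25 (adjusted p = 0.00174 and 0.0359). The long CDKN2B transcript NM_004936 passed narrowly with a difference of 0.63 (adjusted p = 0.0487). The 3 CDKN1C transcripts were each at a mean under 0.5 FPKM and were not tested alone.

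The 3 normal libraries were not alike in markers of cycling, and the inhibitor readouts named below followed the order of MKI67 or its reverse. MKI67, a marker of cycling cells, measured 61.3, 33.4 and 12.7 FPKM in normal replicates 1, 2 and 3. The negative fraction had 1.64 to 4.02 and the positive fraction 4.49 to 6.09. The 10 cycling-cell markers summed to 270 to 907 FPKM in normal, 69.2 to 101 in the negative and 119 to 136 in the positive fraction, and none was at 0. CDKN1A, CDKN1C, CDKN2B and the p16 transcript were lowest in normal replicate 1, where MKI67 was highest, and highest among normal libraries in replicate 3, where MKI67 was lowest. CDKN1B, CDKN2C and CDKN2D had the opposite order. The share of all genes with either order was not counted, and 3 libraries allow few orders, so these orders do not set the inhibitors apart. The part of cycling in the differences between normal and senescent cells was not tested, since the marker and the groups cannot be told apart. The CDKN2A sum and p14ARF had neither order, and the normal levels of p14ARF spread 1.30-fold against 4.88-fold for p16.

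**Figure D4:**
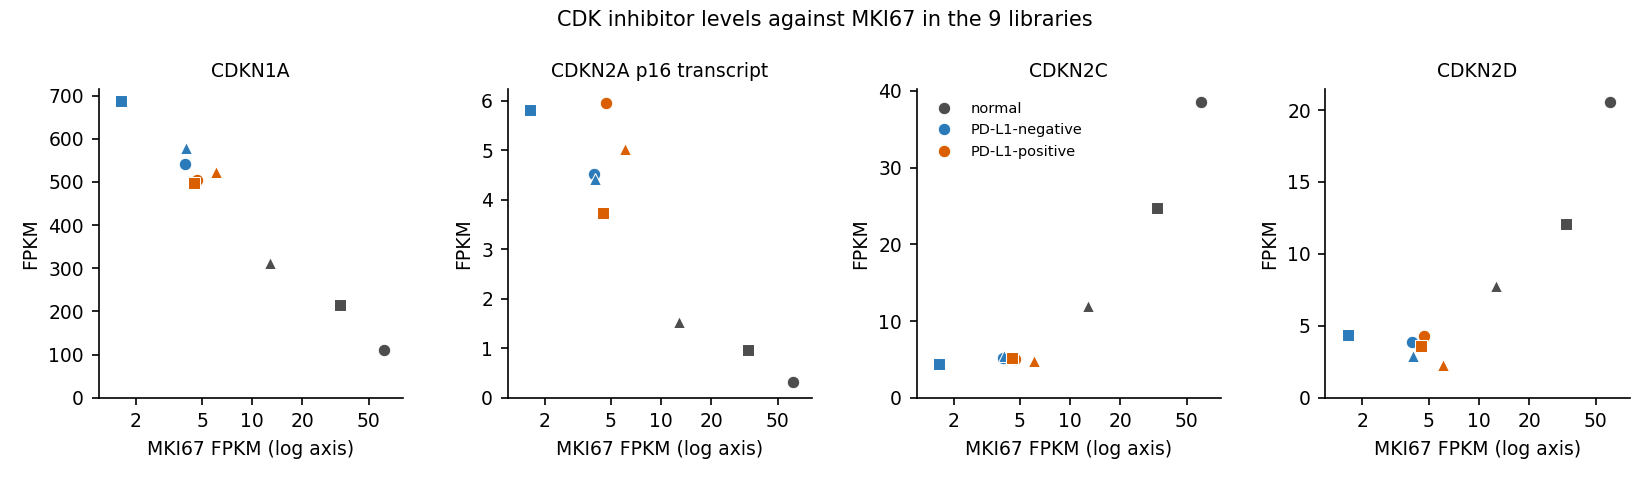
FPKM of CDKN1A, the CDKN2A p16 transcript, CDKN2C and CDKN2D against MKI67 FPKM on a log axis, 1 point per library, with circle, square and triangle for replicates 1, 2 and 3. The 3 normal libraries lie at MKI67 of 12.7 to 61.3, and the normal library with the lowest MKI67 is the one nearest to the senescent libraries in all 4 panels.

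Each sorted fraction was also set against the normal cells. These comparisons share the 3 normal libraries, so they are not independent of each other. In PD-L1-negative cells 2 of the 7 genes were called higher, against 21.0% of all genes, and 2 lower, against 26.6%. In PD-L1-positive cells 1 was called higher, against 21.1% of all genes, and 2 lower, against 26.3%. CDKN1A rose in both, by 1.62 (adjusted p = 0.00239) in the negative and by 1.39 (adjusted p = 0.00519) in the positive fraction on the log2 scale. CDKN2C fell by 2.07 (adjusted p = 0.00107) and by 2.06 (adjusted p = 0.00115). CDKN2D fell by 1.64 (adjusted p = 0.00316) and by 1.77 (adjusted p = 0.00216). The p16 transcript rose by 2.003 (adjusted p = 0.00221) and by 1.99 (adjusted p = 0.00246), where 13.3% and 13.0% of all transcripts were called higher. CDKN2B is the gene whose call differed, at 0.77 (adjusted p = 0.0272) in the negative and 0.63 (adjusted p = 0.0577) in the positive fraction. The call in the negative fraction was lost without normal replicate 1 (0.53, adjusted p = 0.0793), normal replicate 2 (0.73, adjusted p = 0.0805), negative replicate 2 (0.81, adjusted p = 0.0568) or negative replicate 3 (0.66, adjusted p = 0.0912). In the positive fraction CDKN2B passed without normal replicate 3 (0.92, adjusted p = 0.00342). The difference in CDKN2B between the fractions themselves, −0.14, did not pass (adjusted p = 1.00).

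The question of whether the inhibitors differ between the sorted senescent fractions had a direct test. None of the 7 genes and none of the 11 transcripts tested was called, with every adjusted p at 1.00 in limma, and 0.01% of all transcripts were called. This holds for the whole table of genes, where limma called 0 of 12763 (0.0%), 222 had an unadjusted p under 0.05, and the alternatives run called at most 3. CDKN1A was 603 ± 74.9 FPKM (SD, n = 3) in the negative and 509 ± 13.5 in the positive fraction. Its libraries did not overlap, the only such case among the 7 genes, beside 9.42% of all genes tested. The log2 difference of −0.24 had a 95% interval from −0.92 to 0.44. For the p16 transcript the difference was −0.02, with an interval from −0.74 to 0.71, and for p14ARF it was 0.02, with an interval from −0.43 to 0.46. The p16 share was 37.0% ± 6.87 in negative and 35.5% ± 4.92 in positive cells (SD, n = 3 each). For CDKN2C the difference was 0.02, and for CDKN2D, CDKN2B, CDKN1B and CDKN1C it was −0.14, −0.14, −0.07 and −0.24. The short CDKN2C transcript NM_078626 measured 1.37, 1.05 and 1.41 in negative and 0.297, 0.856 and 0.993 in positive cells. It and NM_000389 of CDKN1A were the 2 of 11 transcripts without overlap, beside 9.51% of all transcripts. The CDKN1A interval spans folds of 0.530 to 1.36 and that of p16 spans 0.599 to 1.63. Differences of that size were not detectable in this fit, which takes 1 spread from all 9 libraries. CDKN1A spread 2.83-fold in the normal libraries, which are not compared here, against 1.27-fold in the negative and 1.05-fold in the positive fraction. For p16 the spreads were 4.88-fold against 1.31-fold and 1.59-fold. With only the libraries compared, 498 genes had an unadjusted p under 0.05, and with library weights 1332, in place of 222. None of the 7 genes was called in any alternative.

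**Figure D5:**
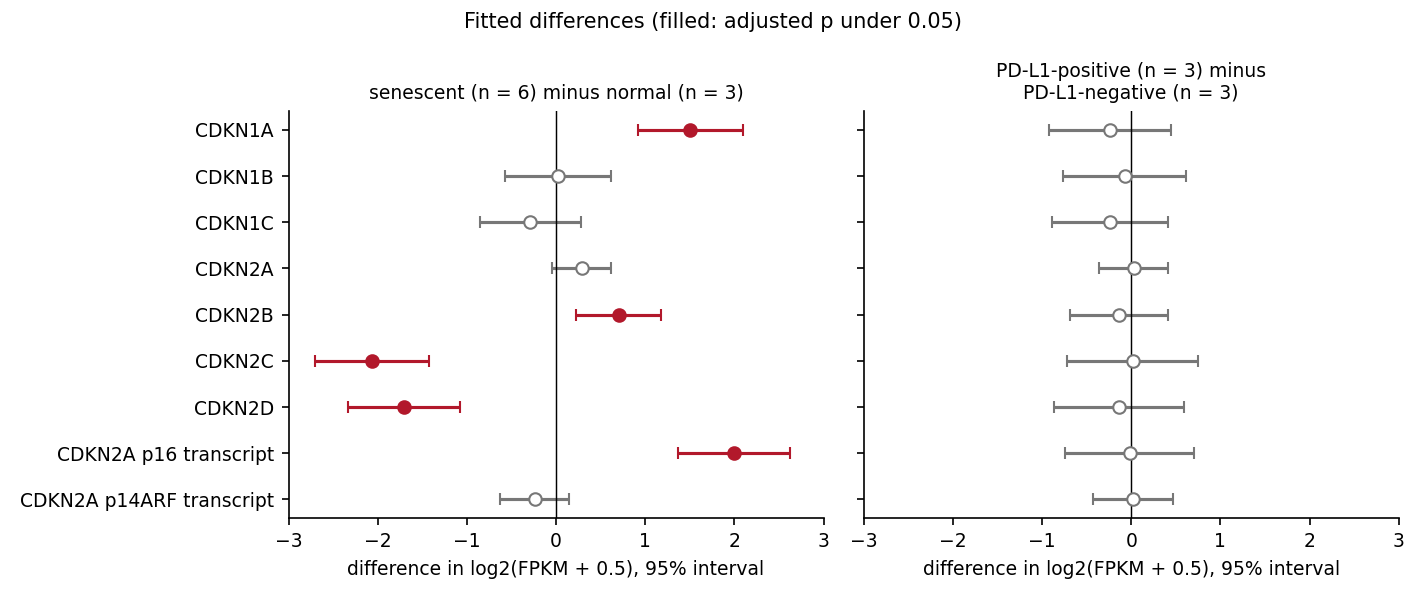
Fitted differences in log2(FPKM + 0.5) with 95% intervals for the 7 genes and the p16 and p14ARF transcripts, senescent minus normal on the left and PD-L1-positive minus PD-L1-negative on the right, filled where the adjusted p was under 0.05. On the left CDKN1A, CDKN2B and p16 lie above 0 and CDKN2C and CDKN2D below it, and on the right all intervals include 0.

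The partners of the inhibitors were followed with lists of known genes in the senescent against the normal cells. Their counts stand beside the 23.9% of all genes that were called higher, the 29.9% called lower and the all-gene median of −0.04. Of the 12 kinases and cyclins that the inhibitors bind, 3 were called higher and 8 lower, with a median log2 difference of −0.74, so that the share higher was near that of all genes and the share lower above it. The cyclin D genes CCND2 and CCND1 and the cyclin E gene CCNE1 rose, by 3.29 (adjusted p = 1.85e-05), 1.62 (adjusted p = 0.000272) and 0.72 (adjusted p = 0.00465). CCND2 went from 0.0535 ± 0.0261 FPKM (SD, n = 3) to 5.15 ± 1.62 (SD, n = 6), and CCND1 from 205 ± 86.9 to 602 ± 68.4. The filter on low values kept CCND2 only through its senescent libraries. CDK2, CCNA2 and CCNB1 fell, by 1.18, 2.74 and 2.17 (adjusted p = 0.000303, 0.000404 and 0.000993). CDK4, the target of the INK4 proteins, fell by 0.47 (adjusted p = 0.00165), and CDK6 did not pass with −0.01. CCND3 and CCNE2, of the same cyclin families as the genes that rose, fell by 0.56 and 0.93 (adjusted p = 0.00541 and 0.0151). CDK4, CDK6, CCND3 and CCNE2 were picked from the list after their values were seen.

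Among 13 pocket proteins and E2F factors, which act below the CDKs, 2 were called higher, a share below that of all genes, and 9 lower, a share above it, with a median of −0.62. TFDP2, a partner of E2F factors, and RBL2, the pocket protein p130 of resting cells, rose by 0.97 and 0.37 (adjusted p = 3.61e-05 and 0.00421). E2F8, RB1 and E2F2 fell by 2.16, 0.63 and 1.36 (adjusted p = 0.000875, 0.00139 and 0.00240). E2F8 and E2F2 passed the filter through the normal libraries, at means of 3.63 and 1.35 FPKM against 0.298 and 0.172 in senescent cells.

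Of 18 Polycomb and other regulators of the CDKN2A and CDKN2B locus, 17 were tested, 2 were higher, a share below that of all genes, and 6 lower, a share near it, with a median of −0.18. EZH2, the methyltransferase of the Polycomb repressive complex in dividing cells, fell from 18.7 ± 8.57 FPKM to 3.37 ± 0.939 with a log2 difference of −2.24 (adjusted p = 0.000213). KDM2B and RNF2, parts of Polycomb complexes, fell by 0.70 and 0.49 (adjusted p = 0.00173 and 0.00178). EZH1, the paralog of EZH2, and CBX7, a Polycomb reader, rose by 0.92 and 0.66 (adjusted p = 0.000100 and 0.00383). Of 7 FOXO and SMAD factors 3 were higher, a share above that of all genes, and 1 lower, a share below it, with a median of 0.47. FOXO4, FOXO3 and SMAD3 rose by 1.03, 0.62 and 0.78 (adjusted p = 0.000157, 0.000256 and 0.00258), and SMAD4 fell by 0.26 (adjusted p = 0.0375). Of 9 parts of the ubiquitin ligases that turn p21 and p27 over, 2 were higher, a share near that of all genes, and 6 lower, a share above it, with a median of −0.54. SKP1 and DDB1 rose by 0.58 and 0.28 (adjusted p = 0.000710 and 0.0207), and CUL1, SKP2 and CKS1B fell by 0.54, 1.34 and 1.44 (adjusted p = 0.000475, 0.000509 and 0.00248). All 10 cycling-cell markers were lower, with a median of −2.21, beside −0.04 for all genes tested. None of the genes of these lists was called between the sorted fractions.

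Among the neighbours of the locus, MTAP, an enzyme of the methionine salvage pathway, fell from 13.5 ± 3.62 to 7.14 ± 0.379 FPKM with a log2 difference of −0.85 (adjusted p = 0.000954). The antisense RNA CDKN2B-AS1 was at 0.206 to 0.481 FPKM in normal and 0.105 to 1.08 in senescent cells, under the filter, and DMRTA1 was at 0 to 0.0377. The library kit keeps the strand, but the sources used here do not say whether the counting did, so reads of CDKN2B and of its antisense RNA may not have been told apart.

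The genes with the levels most like those of an inhibitor over the 9 libraries were ranked by Pearson's r on log2(FPKM + 0.5). These values are descriptions, in which much of the range is the step between normal and senescent libraries. BDH2, CCNG1, RBPMS, SSH3 and USP11 were most like CDKN1A, with r of 0.992 to 0.995. CDC42EP2, TGIF1, ZCCHC24, BCL3 and CLIP4 were most like CDKN2B, with r of 0.980 to 0.991. For the CDKN2A sum the closest genes were METTL21B, SMPD2, MCHR1, ACAD10 and ZNF329, with lower r of 0.904 to 0.921.

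The inhibitors were looked up in the authors' deposited iRegulon table, which lists motifs and binding tracks enriched near 223 input genes. In the authors' deposited table CDKN2C is listed as a target in 55 of 128 rows, of which 28 are among the 52 that name an E2F factor, with normalized enrichment scores of 3.07 to 11.9. The share of rows that list each of the remaining input genes was not counted, so these counts cannot be read as particular to CDKN2C. The other 6 inhibitor genes are listed in none of the rows of the authors' deposited table. Whether they were among the input genes was not looked up, and a gene outside the input could not be listed as a target. Their absence therefore does not set CDKN2C apart. The header does not say how the input genes were chosen. The upstream sequence was searched for the core letters of an E2F site, TTCCCGC with C or G allowed at the third and at the fourth letter. Both strands were searched in the 250 bases before each RefSeq start of GRCh38.p14. All but CDKN1C were in that table, which gave 6 genes with 9 starts. Of these 9 windows 1, before a CDKN2C start, held the core, a share near the 10.9% of 35116 windows of all genes. Its 2 matches are printed as the only ones among the inhibitors, with the core in capitals and 10 bases on either side.
CDKN2C site at chr1:50968565-50968591, plus strand, core 131 bases before the start: agagcgggagGCGGGAAtgagggcgcg
CDKN2C site at chr1:50968662-50968688, plus strand, core 34 bases before the start: gcgcccggccTTCCCGCtcccgcggcg
With a further T in front of the core, none of the 9 windows held a match, beside 2.79% of all windows. A match describes the letters in these windows, and binding was not measured.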

How the data were processed

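RNA of 9 HCA2 libraries was measured, 3 per group. The submitters' processing notes name build hg19 and the tools DESeq2 1.22.2, HTSeq 0.11.2 and STAR 2.5.2a, with no role given. The authors deposited FPKM values per RefSeq transcript. The program that made the FPKM is not given in the sources used here, and without counts no count test was run. The authors also deposited an iRegulon table with a score per motif or track, used here only to look up the 7 genes.

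FPKM were summed per gene. Genes or transcripts with a mean FPKM of at least 0.5 were fitted on log2(FPKM + 0.5), a scale that understates changes of low genes, with limma 3.58.1 (R 4.3.3), an intensity trend, all 9 libraries in 1 fit (6 residual degrees of freedom) and Benjamini-Hochberg adjustment over all features tested at 0.05. On simulated data with a log2 change of 1 between senescent and normal libraries, the fit recovered 82.5% of 200 changed genes among 12763 and 66.0% of 200 changed transcripts among 19964. The changed features were drawn only from those with a mean log2(FPKM + 0.5) over 1, so the rates do not cover low genes such as CDKN1C. Each simulated feature had the same spread in all groups, whereas CDKN2C spread 3.21-fold in normal and 1.25-fold in senescent libraries. In the data 3044 genes were called higher and 3821 lower, far more than the 200 changed in the simulation. The adjustment was therefore stricter in the simulation, and its rates do not give the power of the real comparison. Depth was estimated from the smallest FPKM steps of 7195 genes with 1 transcript of 1500 to 6000 bases. The p16 share was tested by exact permutation of libraries. Transcript lengths and exons came from GENCODE 29 (GRCh38) and upstream windows from RefSeq (GRCh38.p14), whereas the files use hg19, so these coordinates are not those of the files. The GENCODE transcript used for p14ARF was chosen by hand, because the annotation's RefSeq table pairs none with NM_058195. Tables and plots used matplotlib 3.10.9, Biopython 1.88, scipy 1.17.1, pandas 2.3.3 and numpy 2.4.6 in Python 3.11.15.

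The members, lists and tests were chosen with earlier results of these data known. The genes named were all 7 inhibitors, every CDKN2A transcript, the 5 genes most like CDKN1A, CDKN2A and CDKN2B, MKI67, all tested members of lists of 5 or fewer genes, and otherwise up to 3 called genes per direction with the lowest p. Some genes, lists and sequences are not reported here. Alternatives covered the pseudocount, the filter, the scaling, the intensity trend, library weights, a replicate block, fits of the compared libraries alone, and leaving out 1 library at a time.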

Additional observations from a re-analysis of the deposited data

How the results depend on the processing

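CDKN1A, CDKN2C and CDKN2D kept their direction and call in senescent against normal cells in all 19 alternatives run, and the p16 transcript in all 14. CDKN1A ranged from 1.09 to 1.84, CDKN2C from −2.51 to −1.69, CDKN2D from −2.03 to −1.36 and p16 from 1.63 to 2.47 on the log2 scale. The CDKN2A sum and p14ARF did not pass in any of their 19 and 14 alternatives. The count of inhibitors called higher rested on CDKN2B. It was 1 in place of 2 with library weights, and 1 to 2 when each library was left out, with 1 without normal replicate 1 or 2. In PD-L1-negative against normal cells it was 1 in place of 2 with no filter, with library weights and with only the libraries compared, and 1 to 2 when each library was left out. In PD-L1-positive against normal cells it was 2 in place of 1 with quantile normalization, and 1 to 2 when each library was left out.

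The p16 share difference lay between 25.9 and 30.5 percentage points when each library was left out. Without a normal library its p of 0.0714 was the smallest that design allows. The CDKN1B difference ran from −0.40 to 0.28 when each library was left out, with −0.40 (adjusted p = 0.0402) without normal replicate 3, which had the lowest CDKN1B level, and −0.43 (adjusted p = 0.0471) for PD-L1-positive against normal cells. In PD-L1-positive cells CDKN1C passed without normal replicate 1 (−0.72, adjusted p = 0.0364) and with quantile normalization (−0.68, adjusted p = 0.0487). Its mean in these cells was 0.398 FPKM, under the filter, which it passed through higher values in the normal cells. Scaling to equal FPKM sums moved the median of all genes in senescent against normal cells from −0.04 to −0.15, and the calls of the inhibitors held. Library weights lowered the number of all genes called higher from 3044 to 2003.

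Libraries with the same replicate number were not treated as pairs in the main fit, which counts all senescent libraries as separate. The correlations of their deviations ran from −0.01 to 0.46, and 4 of 9 were over 0.1. Libraries with unequal numbers were not compared, so these values cannot decide whether the numbers mark pairs. Between the sorted fractions the correlations were 0.0942, 0.223 and 0.457, so a pairing of these fractions may exist. With a replicate block the count of inhibitors higher in PD-L1-positive against normal cells was 2, because CDKN2B passed (adjusted p = 0.00920). Under the replicate block the p16 share difference of 28.2 points had a permutation p of 0.0741, the smallest possible within numbers. The block changed no other call among the inhibitors.

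Depth limits the p16 level in normal cells, at 7 to 27 estimated fragments over the whole transcript and fewer in the exon that tells p16 apart from p14ARF. The cause of these changes was not tested.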
